A study of Drosophila melanogaster with 15 samples.

Results

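The origin recognition complex (ORC) and the MCM helicase are the machinery that marks and opens replication origins, and the genes examined here are Orc1, Orc2, Orc4, Orc5, Mcm2, Mcm3, Mcm5, Mcm6, Mcm7 and Mcm10 of Drosophila melanogaster. They were chosen by name, as probe sets whose only gene symbol in the platform annotation is 1 of these 10, and because earlier results of the same arrays showed a low at stage T1 and a recovery to T4. Of the 10 genes 9 had a probe set, 1 each, among 13966 probe sets tested (10844 genes by single symbol), and Mcm7 was not analysed here. The RNA came from whole embryos of yellow white and Oregon R flies, picked by hand for their morphology and hybridised to Affymetrix arrays, with 3 arrays at each of 5 stages and 15 in all. Eggs were collected for 30 min at 25 °C at every stage and aged at room temperature. T0 embryos were younger than nuclear cycle 9, before pole cells form, and their transcripts are labelled maternal. T1 embryos were forming cell membranes slowly and T2 embryos fast, the 2 phases of cellularisation. T3 and T4 mark where germ band elongation starts and ends in the sample labels, but where gastrulation does in the series text. All stages share the wild-type background, which the labels give as that of the parents for T0 and T1 and of the embryos for T2 to T4, and no embryo carried a treatment or a named mutation beyond the yellow white markers. The labels do not say that the arrays of a stage came from separate collections, so the spread behind each p-value is that between arrays, part or all of which may be technical.

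ORC is a complex of 6 proteins that binds DNA and, with Cdc6 and Cdt1, loads the ring of Mcm2 to Mcm7 around it. The loaded ring is idle until Cdc45 and the GINS complex join it and turn it into the active replicative helicase. In the fly embryo the first nuclear divisions run on maternal RNA and protein and copy the genome very quickly. The cycle then slows at cellularisation, when the genome of the embryo takes over.

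The stage labels were checked against marker genes, and values are array signals, scaled by the submitters to the same trimmed mean on every array. The 5 zygotic cellularisation markers nullo, Sry-alpha, slam, Z600 and halo summed to 506 to 619 at T0, 24375 to 26463 at T1 and 4431 to 4942 at T2. Of these nullo, Z600 and halo were at or below the negative-control level of 21.96 on all T0 arrays. The segment genes en and gsb summed to 8.40 to 28.8 at T1, 199 to 339 at T2 and 792 to 854 at T4. The pole cell genes vas and gcl summed to 1376 to 1613 at T0, which is before pole cells form, and 214 to 244 at T1. They summed to 65.4 to 92.1 at T2, 71.0 to 101 at T3 and 106 to 154 at T4. Nearly all of the T1 sum came from gcl (mean 213), with vas at or below the negative-control level on all T1 arrays. The follicle cell and eggshell genes Cp18, Cp36 and Yp1 summed to 75.2 to 124 at T0, 115 to 167 at T1 and 131 to 159 at T4, with Yp1 at or below the negative-control level on all 15 arrays and Cp18 above it on all. The hemocyte genes Pxn and srp summed to 7.20 to 14.3 at T0, 103 to 130 at T1, 140 to 266 at T2, 172 to 393 at T3 and 182 to 226 at T4, nearly all of it from srp, while Pxn had stage means between 5.07 and 22.2. The part of these cells in the results below was not tested.

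At T1 all 9 measured genes stood below their T0 level, with no overlap between the arrays of both stages, as did 21.3% of all probe sets. The depth of this low differed widely between subunits of the same complex. At T4 8 of the 9 had arrays above all their T1 arrays, as had 24.7% of all probe sets. By then 6 of the 9 had come back into the T0 range or passed it, 2 of them at T2 and 4 at T3. A gene counted as back once its highest array reached the lowest T0 array, so 1 array could suffice. Mcm6, back at T2, had a T1 mean that was still 79.5% of T0. The share of all probe sets that came back in this way is not given here. With ribosomal protein centring none of the 9 came back before T4 and 5 did at T4, and with hybridisation-control centring 5 came back by T3 and 6 by T4. Because the low at T1 and the recovery to T4 led to the choice of these genes, their differences between T0, T1 and T4 are a description and were not tested. In whole embryos fewer cells of a type and less RNA per cell cannot be told apart.

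Among the ORC subunits, Orc2 and Orc4 were the ones whose T1 arrays lay below the negative-control level. Orc2, the product of a gene needed for replication and chromosome condensation in fly larvae, gave 154.9, 170.9 and 137.4 at T0, 2.8, 5.3 and 2.3 at T1 and 66.9, 47.0 and 57.8 at T2. It then gave 171.0, 137.6 and 172.9 at T3 and 156.7, 135.2 and 190.1 at T4. Orc2 was thus below the negative-control level on all T1 arrays and between T1 and T0 at T2. From T3 on its arrays overlapped those of T0, with some outside the T0 range. Its T1 level lay at least 7.00-fold under T0 and its T2 level at least 2.58-fold over T1, where the dim stage is set to the negative-control level and the bright stage to its mean of log2 signals.

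Orc4, an ATPase-type subunit, gave 246.4, 251.1 and 266.5 at T0, 3.9, 1.1 and 3.0 at T1 and 46.9, 6.1 and 11.2 at T2. At T3 it gave 85.5, 99.0 and 57.8, and at T4 178.5, 107.6 and 139.3. Its arrays were below the negative-control level at T1, 2 of 3 were still so at T2, and the 5 stages in order of level (T0, T4, T3, T2, T1) did not overlap between neighbours. The T1 level lay at least 11.6-fold under T0, and the T4 level at least 6.32-fold over T1. Its mean at T4 was 55.7% of that at T0.

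Orc1, the ATPase that drives ORC and a known target of E2F in the fly, was the other subunit that had not come back by T4 with the signals as deposited. Its signals were 505.1, 523.9 and 526.1 at T0, 84.6, 83.0 and 68.5 at T1 and 77.6, 111.1 and 86.6 at T2. They were 181.3, 192.2 and 255.1 at T3 and 305.4, 222.9 and 307.9 at T4. The T1 and T2 arrays overlapped, and those of T3 and T4 overlapped too. Its mean was 15.2% of T0 at T1, 17.7% at T2, 40.4% at T3 and 53.8% at T4.

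With the signals as deposited Orc5 was the ORC subunit whose arrays overlapped those of T0 earliest, at T2. This order depended on the scaling. With hybridisation-control centring Orc5 came back at T3, as Orc2 did. With ribosomal protein centring Orc5 had not come back by T4, while Orc2 came back at T4. Orc5 gave 165.6, 178.0 and 212.8 at T0, 59.5, 77.5 and 59.1 at T1 and 184.4, 114.9 and 220.7 at T2, with T3 arrays between 167.8 and 227.0 and T4 arrays between 172.4 and 209.4. The T1 arrays stood alone below all the others, and the other stages overlapped. At T1 Orc5 was 2.84-fold lower than at T0, and at T2 its mean was 93.5% of T0.

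**Figure D1:**
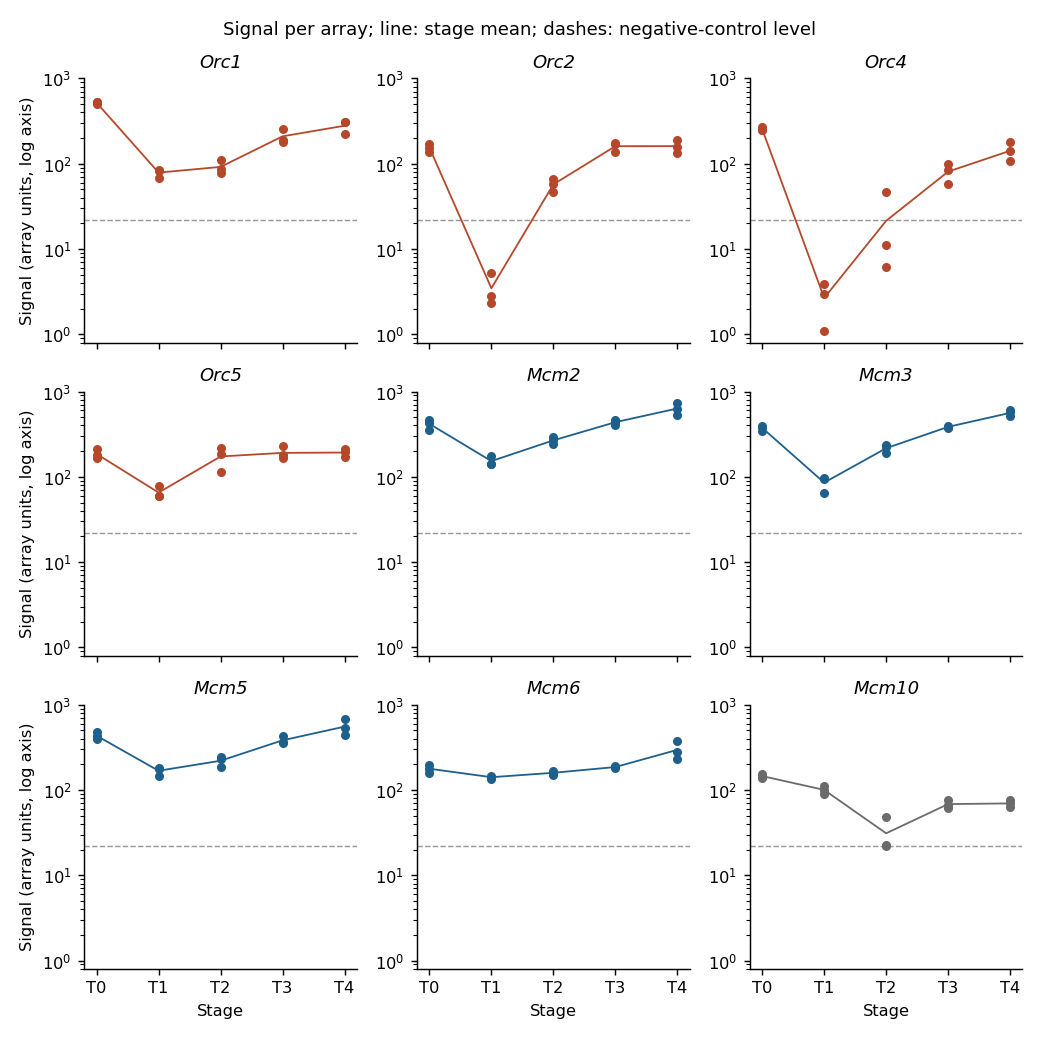
Signal of each array (array units, log axis) for the 9 measured genes at stages T0 to T4, with 3 points per stage, a line through the stage means and dashes at the negative-control level of 21.96. ORC genes are red, MCM ring genes blue and Mcm10 grey. Orc2 and Orc4 fell below the dashes at T1, Mcm6 stayed between 134.0 and 194.9 from T0 to T3, and Mcm10 was lowest at T2.

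The 4 measured subunits of the MCM ring stayed above the negative-control level throughout, and their stage means increased at each step after T1. Mcm3 had the deepest low of them, with 385.8, 342.4 and 396.9 at T0, 97.6, 65.3 and 93.7 at T1 and 222.2, 192.3 and 234.9 at T2. It then gave 396.2, 371.3 and 388.8 at T3 and 600.3, 569.1 and 516.2 at T4. Mcm3 was 4.38-fold lower at T1 than at T0, overlapped T0 at T3 and lay above all T0 arrays at T4.

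Mcm2, which with Mcm5 forms the gate through which DNA enters the ring, followed the same course at a lesser depth. Its signals were 429.7, 468.3 and 356.6 at T0, 176.1, 141.0 and 141.6 at T1 and 292.5, 267.3 and 243.3 at T2. They were 469.7, 437.1 and 404.5 at T3 and 532.0, 737.9 and 629.0 at T4. Mcm2 was 2.74-fold lower at T1 than at T0, overlapped T0 at T3 and lay above all T0 arrays at T4, where its mean was 151% of T0.

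Mcm5, the partner of Mcm2 at the gate, gave 429.0, 394.0 and 473.2 at T0, 146.5, 182.9 and 174.4 at T1 and 244.6, 228.4 and 187.3 at T2. At T3 it gave 357.4, 363.4 and 425.1, and at T4 680.5, 444.9 and 531.9. It was 2.57-fold lower at T1 than at T0, and from T3 on its arrays overlapped those of T0. The difference of T2 over T1 was small in Mcm5, 1.31-fold, with 187.3 as the lowest T2 array and 182.9 as the highest T1 array.

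Mcm6, the ring subunit that Cdt1 contacts during loading, had the smallest fitted T1 difference of the 9, and its T4 arrays stood clear above the rest. It gave 194.9, 178.3 and 159.1 at T0, 143.0, 146.4 and 134.0 at T1 and 167.6, 158.6 and 150.5 at T2. T3 gave 187.3, 188.5 and 181.2, and T4 gave 282.1, 373.6 and 229.6. The T1 arrays were below those of T0 by 1.26-fold in the means, with a fitted log2 difference of -0.31 ± 0.19 (SE). The T4 arrays were above all T0 arrays, at 166% of the T0 mean.

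Mcm10 is not part of the ring but binds the helicase and DNA polymerase alpha and helps to start the fork, and its course was unlike that of the other genes. Its signals were 137.4, 154.3 and 144.6 at T0, 111.4, 98.9 and 90.2 at T1 and 22.5, 48.3 and 22.3 at T2. At T3 they were 62.2, 66.0 and 76.6, and at T4 63.5, 69.7 and 75.4. Mcm10 was lowest at T2, 3.23-fold below T1, and the T4 arrays lay below those of both T1 and T0. With the signals as deposited the other 8 genes were lowest at T1. With arrays centred on their median Orc1 and Mcm6 were lowest at T2 as well, and Mcm10 was lowest at T2 under every scaling tried (quantile, median, ribosomal protein and hybridisation-control centring).

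**Figure D2:**
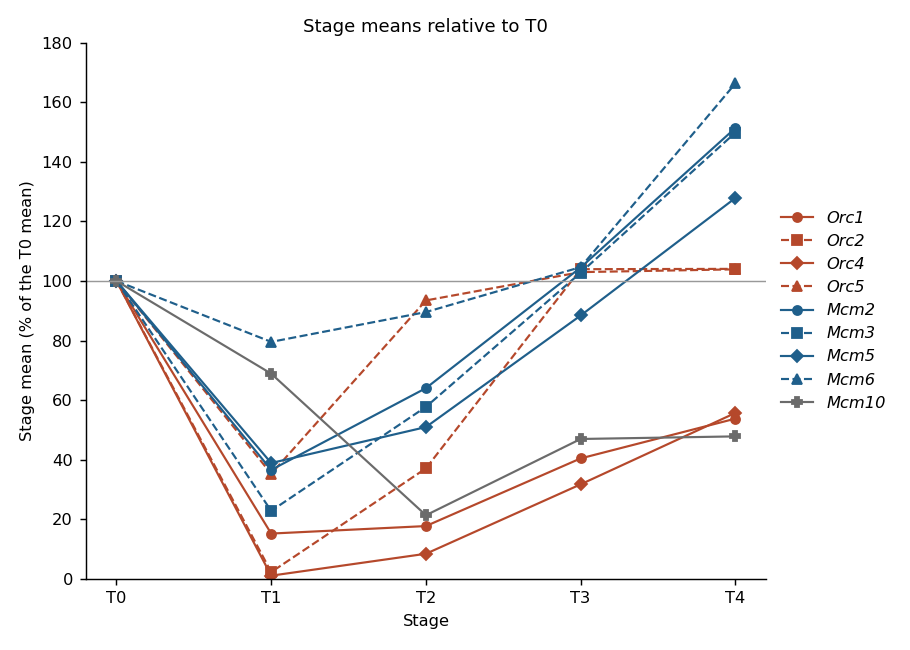
Stage mean of each gene as a percentage of its T0 mean, at stages T0 to T4, with ORC genes in red, MCM ring genes in blue and Mcm10 in grey. At T4 the ring genes lie between 128% and 166%, Orc2 and Orc5 at 104%, and Orc1, Orc4 and Mcm10 between 47.8% and 55.7%. The T1 points of Orc2 and Orc4 are below the negative-control level.

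For T1 against T0, 7 of the 9 genes had a fitted log2 difference of -1 or lower, a size that 15.7% of all probe sets reached, and the median of the 9 was -1.41, against 0.08 over all probe sets. The 4 ORC genes had a median of -3.27 and a range from -4.73 to -1.41, and the 4 ring genes a median of -1.37 and a range from -2.06 to -0.31. With Orc2 and Orc4 set at their bounds the ORC median was -2.71, and that of all 9 was the same to 2 decimals. All 9 genes had T1 arrays below their T0 arrays without overlap, which held for 21.3% of all probe sets. For T4 against T1, 8 of 9 were higher by at least 1, with Mcm6 at 1.00, compared with 14.6% of all probe sets, and the median of the 9 was 1.72, against 0.20 over all probe sets. The same 8 had T4 arrays above all T1 arrays, as had 24.7% of all probe sets, and Mcm10 had T4 arrays below all T1 arrays, as had 14.8%. Since these contrasts were part of how the genes were chosen, the shares say nothing further about them. The log2 scale is log2(signal + 7.3), which draws the differences of low signals towards 0. The T1 values of Orc2 and Orc4 are below the negative-control level, so that their fitted differences are no measured folds.

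The sign of the T1 difference did not depend on the scaling of the arrays, and its size did. All 9 differences stayed below 0 under every alternative setting, from -0.06 for Mcm6 after quantile normalization to -6.21 for Orc4 with a pseudocount of 1. Signal ratios of the 3′ over the 5′ probe sets, a sign of RNA quality, lay at T1 between 1.70 and 1.88 for actin and between 2.61 and 4.57 for eIF-4a. At T0 they lay between 1.81 and 2.47 for actin and between 2.76 and 3.34 for eIF-4a, overlapping T1 in both transcripts. For GAPDH the ratio lay between 1.30 and 8.35 at T1 and between 1.73 and 2.41 at T0, and the part of RNA quality in the low was not tested. At T2 the ratios lay between 0.226 and 1.01 for GAPDH, 1.54 and 2.16 for actin and 2.98 and 3.66 for eIF-4a. At T3 they lay between 0.966 and 5.51 for GAPDH, 1.99 and 2.42 for actin and 2.84 and 3.31 for eIF-4a. The part of RNA quality in the differences between T2 and T3 was not tested either.

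The steps after T1 split the genes by timing. Between T1 and T2 4 of the 9 genes, Orc2, Orc4, Orc5 and Mcm3, had a log2 difference of at least 1, a size seen in 7.45% of all probe sets. The T2 arrays lay above all T1 arrays in 7 of the 9, all but Orc1 and Mcm10, against 18.1% of all probe sets, and below them in Mcm10, against 11.0%. Orc4 is in both counts with all its T1 arrays and 2 of 3 T2 arrays below the negative-control level. Its difference is thus no measured fold, and its T2 level rests on 1 array (46.9). In that step Orc1 stood at 0.20 ± 0.20 (SE), Mcm6 at 0.16 ± 0.19 and Mcm10 at -1.55 ± 0.23. Between T3 and T4 none of the 9 had a log2 difference of 1 or more, a size seen in 3.11% of all probe sets. The T4 arrays lay above all T3 arrays in 5 of the 9, Orc4 and the 4 ring genes, against 10.4% of all probe sets. In that step the log2 differences of the 4 ring genes lay between 0.51 and 0.62, and those of Orc2, Orc5 and Mcm10 between -0.00 and 0.03. Both steps share arrays with the stages that led to the choice, so these values too are a description.

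T3 against T2 is the step whose arrays took no part in the choice of the genes, and it was tested in limma over all probe sets. A call needed both an adjusted p under 0.05 and a log2 fold change of 1 or more in either direction. The step lies within the rise from T1 to T4 that led to the choice, so genes chosen for that rise are more apt to rise here. The counts and shares of this step are thus not independent of the choice. Of the 9 genes 4 were called higher at T3, Orc1, Orc2, Orc4 and Mcm10, against 0.666% of all probe sets called higher. None was called lower, against 0.773% of all probe sets, and all 9 fitted differences were above 0, 7 of them at an unadjusted p under 0.05. Their median was 0.82, against -0.00 over all probe sets, and 8 of 9 had T3 arrays above all T2 arrays, which 9.47% of all probe sets showed. Orc2 averaged 160.5 ± 19.9 at T3 and 57.2 ± 9.96 at T2 (SD, n = 3 each), a log2 fold change of 1.38 ± 0.20 (SE, limma adjusted p = 0.0036). Orc1 averaged 209.5 ± 39.8 at T3 and 91.8 ± 17.3 at T2, with 1.13 ± 0.20 (limma adjusted p = 0.013).

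Orc4 averaged 80.8 ± 21.0 at T3, with T2 arrays on both sides of the negative-control level at 21.4 ± 22.2, and had a log2 fold change of 1.86 ± 0.40 (limma adjusted p = 0.032). Mcm10 averaged 68.3 ± 7.46 at T3 and 31.0 ± 14.95 at T2, with 1.04 ± 0.23 (limma adjusted p = 0.036). The Mcm10 T2 arrays of 22.5 and 22.3 lay just above the negative-control level. The ring genes Mcm2, Mcm3 and Mcm5 were 1.63-, 1.78- and 1.74-fold higher at T3 than at T2 and stayed under the fold threshold, with limma adjusted p = 0.087, 0.039 and 0.067. Orc5 had 191 ± 31.6 at T3 and 173 ± 53.8 at T2, and Mcm6 had 186 ± 3.91 at T3 and 159 ± 8.55 at T2. Neither was called, and their log2 differences had 95% intervals from -0.34 to 0.68 and from -0.19 to 0.62.

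All 4 calls ended with hybridisation-control centring (limma adjusted p between 0.12 and 0.37) and with the T2 and T3 arrays alone (between 0.087 and 0.26). With each array left out in turn the Orc2 call held. The Orc1 call ended without T2 replicate 1 or T3 replicate 3 (limma adjusted p = 0.057 and 0.059), and the Orc4 call without T0 replicate 3, T2 replicate 3 or 4 or T3 replicate 1 or 2 (limma adjusted p between 0.051 and 0.12). The Mcm10 call ended without any T0 replicate, T1 replicate 2, T2 replicate 1 or 4 or any T3 replicate, with limma adjusted p between 0.052 and 0.13. It also ended with median or ribosomal protein centring (limma adjusted p = 0.052 and 0.054), a pseudocount of 1 (0.059) or at the median signal (log2 0.72), and the replicate block (0.11). The Orc4 call also ended with a pseudocount of 1 (limma adjusted p = 0.081) and the Orc1 call with one at the median signal (log2 0.98). With the replicate block the Orc1 and Orc4 calls ended too (limma adjusted p = 0.052 and 0.060).

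**Figure D3:**
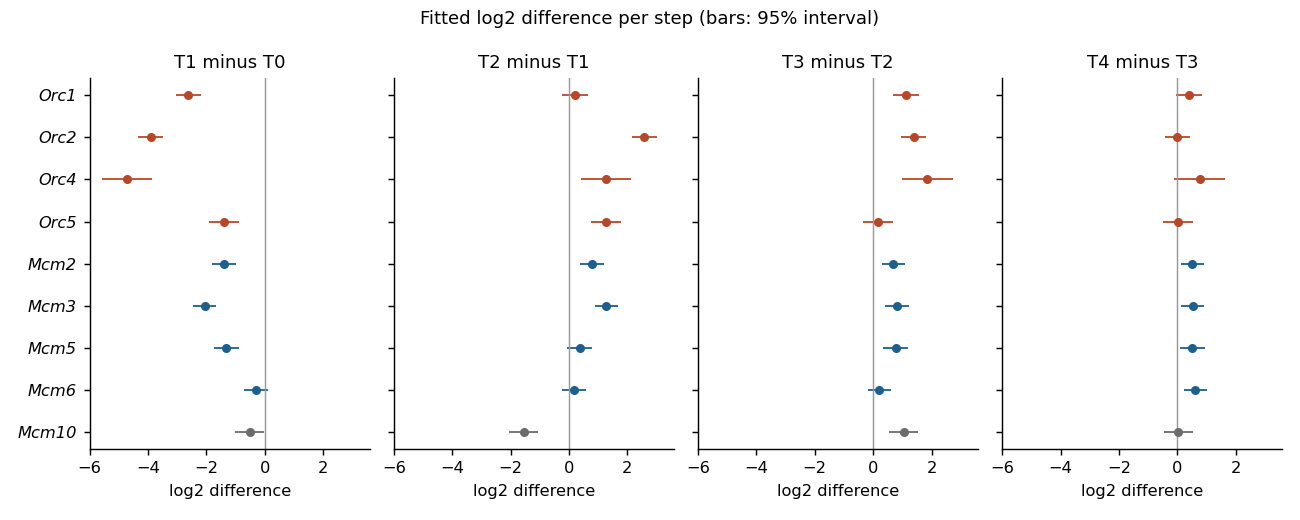
Fitted log2 difference of each gene for the steps T1 minus T0, T2 minus T1, T3 minus T2 and T4 minus T3, with bars for the 95% interval, ORC genes in red, MCM ring genes in blue and Mcm10 in grey. Orc1 stays near 0 in the second step, Mcm10 lies at -1.55 there, all 9 points of the third step lie above 0, and the ring genes lie between 0.51 and 0.62 in the last.

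At T4 the arrays of each gene were compared with those of T0. Mcm2, Mcm3 and Mcm6 lay above all T0 arrays (log2 differences of 0.59, 0.57 and 0.69), Mcm5 (0.33), Orc2 (0.05) and Orc5 (0.06) overlapped T0, and Orc1 (-0.89), Orc4 (-0.84) and Mcm10 (-0.99) lay below all T0 arrays. Over all probe sets 26.1% lay above and 19.7% below T0 without overlap. With 3 of the 9 genes above and 3 below, the split is near these shares and is not read as a trait of these genes. The position of Orc1, Orc4 and Mcm10 below T0 held under all 4 other scalings. With ribosomal protein centring Mcm2, Mcm3 and Mcm5 turned to -0.05, -0.07 and -0.31, Mcm5 was also at -0.09 with hybridisation-control centring, and no gene lay above T0 with either. Orc5 lay below all T0 arrays with ribosomal protein centring, and Mcm2 overlapped T0 with arrays centred on the median.

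Other genes of replication initiation give the setting, from lists chosen by function with earlier results known. In the licensing list 4 of 7 genes were measured. Mcm4, known in the fly as dpa and a ring subunit outside the chosen names, had 147 ± 76.3 at T1 and 583 ± 46.6 at T0, and was called lower with -2.04 ± 0.27 (SE, limma adjusted p = 4.3e-05). It was called higher at T4 (635 ± 47.8) than at T1 (limma adjusted p = 3.7e-05). At T3 it had 439 ± 31.8, against 214 ± 40.5 at T2, and was not called (1.03 ± 0.27, limma adjusted p = 0.078).

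The genes of the ring's loaders had other values. Cdc6 had 766 ± 193 at T1 and 368 ± 19.6 at T0 and was called higher (1.01 ± 0.20, limma adjusted p = 0.0010). This call rests on the threshold of 1 and ended under 9 of 24 alternatives, among them those without T0 replicate 3 or 4 and without T1 replicate 1 or 2, with log2 differences between 0.39 and 1.00. The Cdt1 gene dup had 398 ± 45.6 at T1 and 446 ± 83.7 at T0 and was not called (-0.15 ± 0.20, limma adjusted p = 0.67). Mcm8 was near the negative-control level at every stage, with means between 9.17 and 38.7.

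Of 12 genes that activate the helicase or trigger firing, 7 were called lower at T1 than at T0 and 1 higher, against 15% (lower) and 7.82% (higher) of all probe sets. The lower ones were led by Cdc45, the partner of the ring in the active helicase, with 29.0 ± 9.31 at T1 and 540 ± 11.7 at T0 (-3.95 ± 0.25, limma adjusted p = 3.0e-08), followed by the fork protein Ctf4 (46.8 ± 6.56 at T1, 439 ± 36.5 at T0), mus101, the TopBP1 gene, and the kinase gene Cdc7. Cdc45 and mus101 each had 1 T1 array at or below the negative-control level. The higher one was chif, which encodes the Dbf4-type activator of Cdc7 (206 ± 18.1 at T1, 91.7 ± 8.55 at T0, 1.11 ± 0.19, limma adjusted p = 0.00038). Its call ended with ribosomal protein or hybridisation-control centring (0.49 and 0.57 on the log2 scale). CycE, the cyclin that starts S phase, had 450 ± 80.6 at T1 and 297 ± 41.9 at T0, and the GINS subunit Psf2 had a log2 difference of 0.08, and neither was called. For T4 against T1 6 of the 12 were called higher and 1 lower, against 12.6% and 7.58% of all probe sets, the lower one being the GINS subunit Sld5 (50.6 ± 23.2 at T4, 150 ± 13.0 at T1). Cdc45 remained called lower at T4 than at T0, with 143 ± 40.6 at T4 (-1.90 ± 0.25, limma adjusted p = 3.3e-05).

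Of 21 fork genes 13 were called lower at T1 than at T0 and none higher in limma (2 were higher at an unadjusted p under 0.05), beside 15% (lower) and 7.82% (higher) of all probe sets. At T4 12 were called higher and 1 lower than at T1, beside 12.6% (higher) and 7.58% (lower). Prim2, Gnf1, Fen1 and RPA1 had the largest T1 lows, the first 3 being at least 19.7-, 13.2- and 13.0-fold under T0, and RPA1, the large subunit of the single-strand binding protein, standing at 41.3 ± 9.18 at T1 and 818 ± 125 at T0 (limma adjusted p at most 1.2e-06 for each of the 4). For T3 against T2 3 of all 47 listed genes, Ctf4, PolE1 and RPA1, were called higher and none lower in limma (3 were lower at an unadjusted p under 0.05), beside 0.666% (higher) and 0.773% (lower) of all probe sets. All 3 calls ended with hybridisation-control centring and with the T2 and T3 arrays alone, and that of PolE1 also without T3 replicate 2 (limma adjusted p = 0.051) and with the replicate block (0.055). The RPA1 call has a log2 fold change of 1.06 and ended under 7 of 25 alternatives, among them those without T2 replicate 4, T3 replicate 1 or T3 replicate 2 (0.93, 0.98 and 1.09, limma adjusted p = 0.069, 0.077 and 0.057).

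Of 10 regulators 3 were called lower at T1 than at T0 and 2 higher, beside 15% (lower) and 7.82% (higher) of all probe sets. The lower ones were Rbf, the retinoblastoma-family repressor (19.3 ± 7.39 at T1, 185 ± 47.8 at T0), E2f2 (145 ± 24.5 at T1, 437 ± 121 at T0) and E2f1, the activator of S-phase genes (177 ± 25.5 at T1, 409 ± 37.0 at T0). Of the Rbf arrays at T1, 2 were at or below the negative-control level, as was their mean. E2f1 was called higher at T2 than at T1 (489 ± 84.8 at T2, 1.42 ± 0.22, limma adjusted p = 0.00058). The higher ones at T1 were ago, a subunit of the ligase that degrades cyclin E (2239 ± 146 at T1, 692 ± 245 at T0), and mip130, a subunit of the Myb-MuvB complex (258 ± 57.2 at T1, 86.2 ± 18.7 at T0). The mip130 call ended with ribosomal protein or hybridisation-control centring (0.88 and 0.96 on the log2 scale). Over all 4 lists 24 of 47 genes were called lower and 4 higher at T1 than at T0, beside 15% (lower) and 7.82% (higher) of all probe sets. At T4 22 were called higher and 2 lower than at T1, beside 12.6% (higher) and 7.58% (lower). At T2 11 were called higher than at T1 and 1 lower, against 5.39% (higher) and 4.25% (lower) of all probe sets. For T4 against T3 Top1, a DNA topoisomerase gene, was called lower and no listed gene higher in limma (13 were higher at an unadjusted p under 0.05). The Top1 call ended with hybridisation-control centring (limma adjusted p = 0.13), and the shares of all probe sets were 0.558% (lower) and 0.516% (higher). Against T0, 3 were called higher and 5 lower at T4, against 11.9% (higher) and 12.3% (lower) of all probe sets. The median log2 difference of the 47 was -1.08 at T1 against T0 and 0.95 at T4 against T1.

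**Figure D4:**
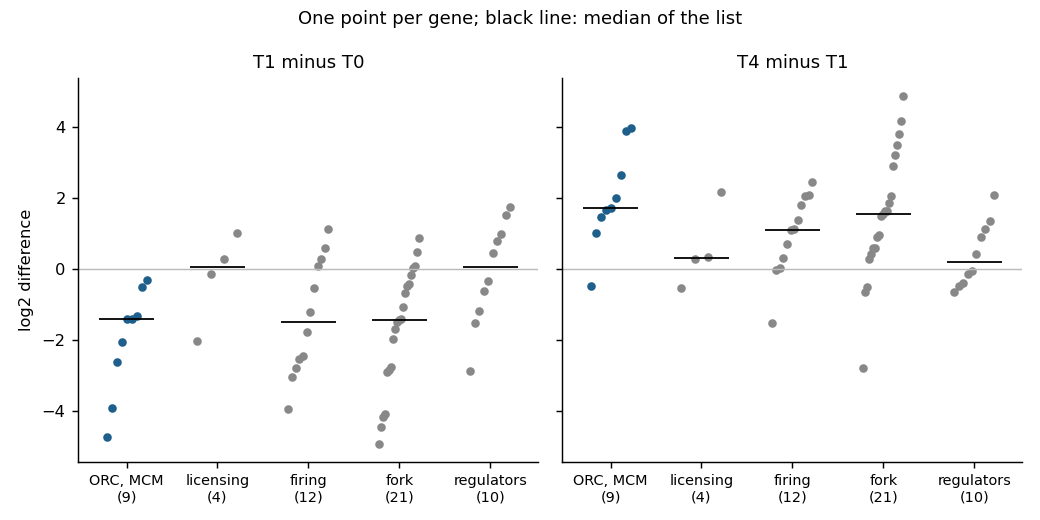
Fitted log2 difference of each gene for T1 minus T0 (left) and T4 minus T1 (right), with 9 ORC and MCM genes in blue and the licensing, firing, fork and regulator lists in grey, and black lines for the medians. For T1 minus T0 the 9 blue points lie between -4.73 and -0.31 around a median of -1.41, the fork genes reach from -4.93 to 0.86, and the regulators lie on both sides of 0.

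Among 3504 other genes with a highest stage mean of at least 100 and a range of at least 1 on the log2 scale, those whose signals ran most nearly parallel to the mean of the 9 standardised profiles were sought. The 8 nearest were Naa35, WRNexo, Msh6, Rrp1, Ltn1, dre4, scramb2 and RPA1, with Pearson r between 0.974 and 0.991 over the 15 arrays. This is a description over arrays that all these genes share. Among the 9 themselves, r of a gene with the mean of the other 8 was between 0.868 and 0.950 for Orc1, Orc2, Orc4, Mcm2, Mcm3 and Mcm5. It was 0.728 for Orc5 and 0.661 for Mcm6, and 0.116 for Mcm10.

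The nearest gene, Naa35, a subunit of an N-terminal acetyltransferase, had 240 ± 24.6 at T0, 36.7 ± 0.950 at T1 and 222 ± 16.3 at T4 (SD, n = 3 each). Msh6, a mismatch repair gene, had 442 ± 42.0 at T0, 7.07 ± 0.306 at T1, below the negative-control level, and 373 ± 15.1 at T4. The gene dre4, which encodes a subunit of the histone chaperone FACT, had 339 ± 61.5 at T0, 76.9 ± 17.0 at T1 and 322 ± 35.9 at T4.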

How the data were processed

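Transcript levels were measured in 15 whole-embryo samples, 3 arrays at each of 5 stages, grouped by the stage and replicate number in the sample titles. Each array has 1 deposited linear signal for each probe set. Per the submitters' processing notes these were made with MAS5, the version being not given in these sources. The trimmed mean of the deposited signals, with 2% left out at each end, averaged 100 over the 15 arrays after rounding. Tests left out 44 control probe sets. Gene names came from the platform annotation and were updated through Entrez identifiers. A listed gene with several probe sets was represented by the brightest. Listed genes that shared a probe set or lacked one are not analysed here.

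Tests ran on log2(signal + 7.3), a pseudocount equal to the middle of the 15 arrays' 25th percentiles, with limma 3.58.1 in R 4.3.3. The model had a mean for each stage, fitted on the 15 arrays together, with eBayes and Benjamini-Hochberg adjustment over 13966 probe sets. The negative-control level is the 95th percentile of 23 bacterial, mouse and yeast control probe sets, and 39.0% to 49.7% of an array's signals lay at or under it. Arrays correlated with r between 0.925 and 0.964 within a stage and between 0.749 and 0.949 across stages, and their number limits the precision. The fit was tested on simulated data for T3 against T2 over 13966 probe sets. Of 50 probe sets with a simulated log2 change of 1.5 it called 88%, of 50 with one of 3 it called 100%, and 15 unchanged ones were called too. The changed ones were drawn from probe sets with a T2 signal above 50, and no change under 1.5 was simulated. Orc4 and Mcm10 had T2 means of 21.4 and 31.0, and the fitted differences of Orc1, Orc2 and Mcm10 were under 1.5. The rates therefore do not cover these genes.

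The genes examined and the lists were chosen with earlier results of these data known. Named from the lists were up to 4 called genes per direction and the brightest uncalled ones, and all licensing genes. Alternatives were other normalizations and centrings, pseudocounts, a filter on dim probe sets, an intensity trend, the replicate number as a block, T2 and T3 alone and each array left out.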

Additional observations from a re-analysis of the deposited data

How the results depend on the processing

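The count of 4 genes called higher at T3 than at T2 was the least stable value. It was 0 with hybridisation-control centring and 0 in a fit of the T2 and T3 arrays alone, both in limma, where 6 and 7 of the 9 were higher at an unadjusted p under 0.05. It was 3 with arrays centred on the median, 2 with a pseudocount of 1 and 2 with one at the median signal, and 2 to 4 with each array left out. With the replicate block it was 1, Orc2, but the arrays share only a number: of 23 same-numbered pairs from different stages 0 had deviations correlated above 0.1, the highest r being 0.075. In that step 93 probe sets of all were called higher and 108 lower, 14 and 21 with hybridisation-control centring, 6 and 9 with the 6 arrays alone and 47 and 65 with the replicate block. The median of the 9 genes for T1 against T0, -1.41, was -2.03 with ribosomal protein and -1.95 with hybridisation-control centring. For T4 against T1 it was 1.33 with arrays centred on the median. For T4 against T0 it was 0.28 after quantile normalization, -0.17 centred on the median, -0.58 centred on ribosomal proteins and -0.37 on hybridisation controls, so its sign is not settled. Mcm2, Mcm3 and Mcm5 turned to -0.0546, -0.0664 and -0.31 with ribosomal protein centring, and Mcm5 to -0.0934 with hybridisation-control centring. The other listed genes called higher at T1 numbered 1 with ribosomal protein and 1 with hybridisation-control centring and 2 with the pseudocount raised to the median signal, and those lower at T4 than at T1 numbered 4 centred on the median. The 2 genes back in the T0 range at T2 were 1, 0 and 1 with median, ribosomal protein and hybridisation-control centring, and 1 to 2 with an array left out. By T3 the 6 genes were 0 with ribosomal protein centring. These range checks were chosen after seeing the data, and the cause of these shifts was not tested. Called probe sets for T1 against T0 were 1092 higher and 2097 lower as deposited, 1716 and 1880 centred on the median and 316 and 3310 on ribosomal proteins, where the median of all probe sets moved to -0.55. Each gene examined had 1 probe set, so the choice among probe sets could not be varied. The depth of the Orc2 and Orc4 lows is limited by the negative-control level.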
